A study of Homo sapiens with 36 samples.

Results

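Oxidative phosphorylation depends on proteins from 2 genomes, and the RNA of both was measured here in HCT116 cells from which the maintenance DNA methylation proteins UHRF1, DNMT1 or both had been degraded. The genes were taken by name among protein-coding genes of GENCODE v44. Mitochondrially encoded members have symbols that start with MT-. Nuclear members are the NDUF genes, assigned by name to complex I, and SDHA to SDHD of complex II. They also include the UQCR genes and CYC1 of complex III, the COX4 to COX8 genes of complex IV and the ATP5 genes of complex V. Matching on the Ensembl identifier found 103 members among 19942 protein-coding genes and 60648 identifiers in all. Of these, 13 are mitochondrially encoded (7 of complex I, 1 of complex III, 3 of complex IV and 2 of complex V) and 90 are nuclear (39, 4, 10, 17 and 20 for complexes I to V). All 13 mitochondrial members and 86 of 90 nuclear members had enough counts to be tested. The others were ATP5MGL, which had at most 2 counts in any library, and COX4I2, COX6A2 and COX7B2, which are given as raw counts with the isoforms.

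The respiratory chain passes electrons from NADH (complex I) and succinate (complex II) through complex III to oxygen at complex IV, pumping protons across the inner mitochondrial membrane, and complex V uses the proton gradient to make ATP. Mitochondrial DNA is transcribed from both strands as long polycistronic RNAs by its own RNA polymerase, POLRMT, with TFAM and TFB2M. The transcripts are then cut out, most messenger RNAs among them are polyadenylated, and many are stabilized by LRPPRC. Nuclear members are transcribed singly by RNA polymerase II, and complex II has no mitochondrially encoded subunit. The 2 sets thus meet in the same protein complexes but differ in template, polymerase and RNA processing.

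HCT116 is a colorectal cancer line. The cells carried the plant ubiquitin ligase OsTIR1 under a doxycycline-inducible promoter. UHRF1-AID cells have a mini-auxin-inducible degron (mAID) tag on UHRF1, DNMT1-AID cells on DNMT1, UHRF1-AID/DNMT1-AID cells on both, and WT cells on neither. All lines, WT included, received 2 μg/mL doxycycline with 20 μM auxinole, an OsTIR1 antagonist, for 1 day and then 2 μg/mL doxycycline with 500 μM auxin for 2, 6 or 8 days. Each of the 12 groups of line and day had 3 bulk libraries of polyadenylated RNA, 36 in all. The study calls its RNA-seq replicates biological, and the labels do not say how the cultures were kept apart, so p-values measure the spread between these libraries. The labels do not name the clones or the library batches, so a difference between lines cannot be told apart from one between clones, nor a difference between days from one between batches.

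Total counts were 21074536 to 37175136 per library, of which protein-coding genes took 90.2% to 92.8%. Of the 10 epithelial markers, 9 were well expressed (median over libraries 2442 CPM for KRT8 and 367 CPM for EPCAM), and CDX1 was near 0 (median 0.278 CPM). Markers of leukocytes, endothelium and fibroblasts were near 0, except CD68 (median 22.8 CPM) and COL1A1 (median 26.5 CPM). DNMT1 RNA was lower than in WT on days 2, 6 and 8 both in DNMT1-AID cells (log2 fold changes -1.70, -1.38 and -1.63) and in UHRF1-AID/DNMT1-AID cells (-1.87, -1.67 and -2.18), and it was also lower in UHRF1-AID cells on day 2 (-0.71), where DNMT1 carries no tag. UHRF1 RNA passed the test only in UHRF1-AID/DNMT1-AID cells on day 8 (-1.29). The degron removes protein, so RNA cannot check the UHRF1 label.

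The mitochondrial genes lie close together on a circle of 16569 bases (hg38, chrM), 12 on the plus strand and MT-ND6 on the minus strand, and are 207 to 1812 bases long. In 6 of 13 the length is not a multiple of 3, since the stop codon is completed when the poly-A tail is added. Some share bases, which decides how far their counts can be told apart, so the stretches are shown here in the plus-strand sense. MT-ATP8 and MT-ATP6 share 46 bases, in which the capitals mark the start codon of MT-ATP6 and the stop codon of MT-ATP8.
MT-ATP8/MT-ATP6, chrM:8527-8572: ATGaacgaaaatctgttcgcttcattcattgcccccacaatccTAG
MT-ND4L and MT-ND4 share 7 bases, given in capitals with their flanks.
MT-ND4L/MT-ND4, chrM:10745-10781: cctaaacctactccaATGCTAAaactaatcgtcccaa
MT-ATP6 and MT-CO3 share 1 base. How the counting treated reads over 2 genes, reads on either strand and reads that also match nuclear copies of mitochondrial DNA is not given in the sources used here. Reads over the shared bases may thus have gone to either gene of a pair, to both or to neither. Among nuclear members, the read-through gene NDUFC2-KCTD14 had 0.942 to 1.05 times the counts of NDUFC2 over the libraries. The read-through gene ATP5MF-PTCD1 had 0.994 to 2.11 times those of ATP5MF. These read-through members may thus repeat reads of their partners in the nuclear counts, which was not tested. Without strand, RNA of MT-ND6 and RNA copied from the opposite strand cannot be told apart.

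On day 8 mitochondrially encoded RNA took a larger share of the counts in all 3 degron lines than in WT, and nuclear encoded RNA did not. Over all days the 13 mitochondrial genes took 1.09% to 9.29% of all counts of a library, and the 90 nuclear genes 0.669% to 1.71%. On day 8 the mitochondrial share was 4.15%, 6.46% and 4.296% in the 3 UHRF1-AID libraries, 4.15%, 4.604% and 6.998% in DNMT1-AID, 8.800%, 9.29% and 6.698% in UHRF1-AID/DNMT1-AID and 2.52%, 3.16% and 3.33% in WT. Every degron library was thus above every WT library, and UHRF1-AID/DNMT1-AID was highest on average, although its lowest library lies within the range of the DNMT1-AID ones. The means were 4.97% ± 1.296, 5.25% ± 1.53 and 8.26% ± 1.38 in the 3 degron lines, in that order, and 3.01% ± 0.426 in WT (SD, n = 3 each). The nuclear share differed between the lines on that day by less than the spread of libraries, at 0.931% ± 0.0606 in UHRF1-AID, 0.951% ± 0.0719 in DNMT1-AID, 0.913% ± 0.0693 in UHRF1-AID/DNMT1-AID and 0.917% ± 0.0333 in WT cells. In bulk RNA, fewer cells of a kind and less RNA per cell cannot be told apart, and shares of counts say nothing of the amount per cell.

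**Figure D1:**
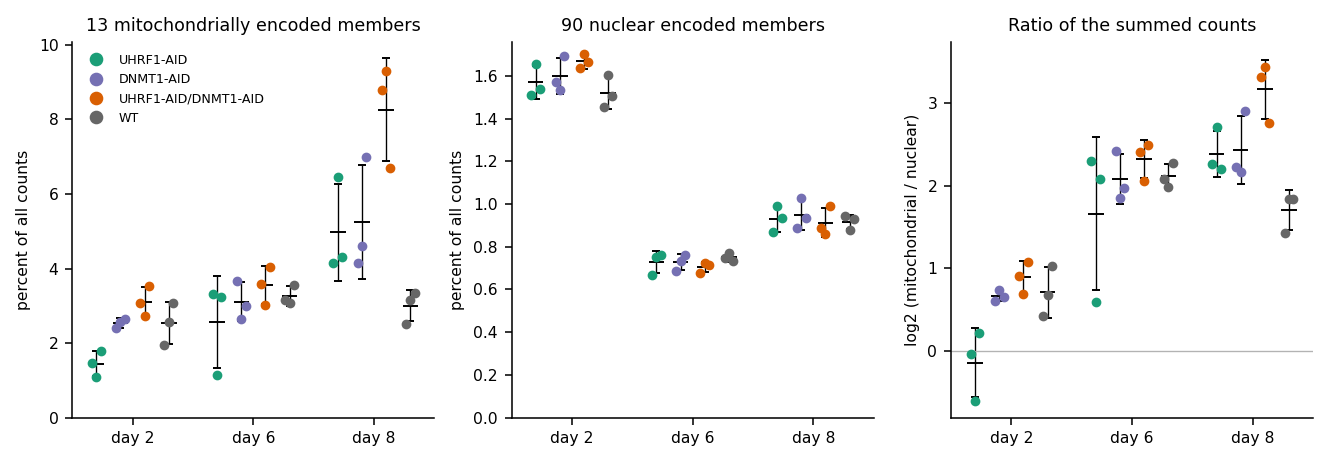
Share of all counts in each library taken by the 13 mitochondrially encoded members and by the 90 nuclear members (percent), and the log2 ratio of their summed counts (right panel), for each line on days 2, 6 and 8, with points for libraries and bars for the mean ± SD. On day 8 all degron libraries lie above the WT libraries in the mitochondrial share, while the nuclear share differs more between days than between lines.

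The log2 ratio of mitochondrial to nuclear counts within a library does not depend on the scaling between libraries. On day 8 it was 2.39 ± 0.28 in UHRF1-AID, 2.43 ± 0.41 in DNMT1-AID, 3.17 ± 0.36 in UHRF1-AID/DNMT1-AID and 1.70 ± 0.24 in WT cells. The ratio exceeded that of WT 1.61-fold, 1.66-fold and 2.76-fold in the 3 degron lines, with no overlap of libraries. UHRF1-AID/DNMT1-AID cells exceeded UHRF1-AID cells 1.71-fold, again without overlap, and DNMT1-AID cells 1.67-fold with overlap. With 3 libraries against 3 an exact permutation test cannot give a two-sided p below 0.10, so no p is given for the ratio.

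The earlier days looked different. On day 2 the ratio was -0.14 ± 0.42 in UHRF1-AID, 0.66 ± 0.07 in DNMT1-AID, 0.89 ± 0.20 in UHRF1-AID/DNMT1-AID and 0.71 ± 0.31 in WT cells, so that it was lower in UHRF1-AID than in WT (0.553-fold, no overlap), and the other lines overlapped WT. The mitochondrial share behind it was 1.47%, 1.09% and 1.78% in UHRF1-AID and 1.95%, 2.56% and 3.08% in WT. On day 6 no line was separate from WT, with ratios of 1.66 ± 0.93, 2.08 ± 0.30 and 2.32 ± 0.23 in the 3 degron lines and 2.12 ± 0.15 in WT. UHRF1-AID varied most on that day, since replicate 2 had a mitochondrial share of 1.14% and the others over 3%. Without that library, the log2 difference from WT was 0.08, against -0.46 with all 3.

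Among single mitochondrial genes, all 13 were higher in UHRF1-AID/DNMT1-AID than in WT cells on day 8 by edgeR's quasi-likelihood test with Benjamini-Hochberg adjustment over 15415 genes, where 35.7% of all genes were called higher. The median log2 fold change was 1.59, with a range of 1.26 to 2.08, against a median of 0.03 over all genes tested. All called values below are from this test, with a call at an adjusted p under 0.05. CPM are counts per 1000000 counts of the library, scaled by the trimmed mean of M-values (TMM).

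MT-CO1, the catalytic subunit of complex IV, had 25249, 28806 and 19385 CPM in UHRF1-AID/DNMT1-AID cells, against 5399.8, 6592 and 6550.0 CPM in WT cells, with a log2 fold change of 1.99 (SE 0.28, adjusted p = 5.14e-07). Each UHRF1-AID/DNMT1-AID library was well above the WT libraries. MT-ND5, a proton-pumping subunit of complex I, had 6030.1, 6831 and 2785 CPM in UHRF1-AID/DNMT1-AID cells and 1081, 1389 and 1463 CPM in WT cells (1.99, adjusted p = 3.98e-05). The third UHRF1-AID/DNMT1-AID library was the lowest of its group for both genes and still above WT. MT-ND6, the only member on the minus strand, had the largest fold of the 13, with a log2 fold change of 2.08 (SE 0.33, adjusted p = 5.26e-06) and 2426, 3076 and 1884 CPM in UHRF1-AID/DNMT1-AID cells, against 541, 559 and 650.5 CPM in WT cells. The strand setting of the counting is not given, so the MT-ND6 counts may include RNA copied from the opposite strand. MT-ND3, a small complex I subunit, had 1321, 1676 and 1691 CPM in UHRF1-AID/DNMT1-AID cells and 338, 447 and 457 CPM in WT cells (1.92, adjusted p = 9e-09), without overlap. The log2 fold changes of the other complex I genes were 1.77 for MT-ND1, 1.54 for MT-ND2, 1.51 for MT-ND4 and 1.33 for MT-ND4L. MT-CYB, the cytochrome b of complex III, had 1.49, and MT-CO2 and MT-CO3, which complete the core of complex IV, had 1.69 and 1.59. The complex V genes MT-ATP6 and MT-ATP8 had 1.43 and 1.26.

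Other fits gave the same calls with 1 exception. All 13 genes were called with each of the 6 libraries left out in turn, and in every one of 6 alternative fits, except that MT-CYB was not called after correction for GC content and length (log2 fold change 0.76). That correction, fitted across all genes, reduced the median of the 13 genes to 1.01, beside a median of -0.22 over all genes in that fit. Mitochondrial genes varied more between replicates than others, with a median biological coefficient of variation of 26.9%, against 9.58% for nuclear members and 10.2% for all genes.

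Fewer mitochondrial genes passed the test in the single degron lines on day 8. In DNMT1-AID cells 10 of 13 mitochondrial genes were higher than in WT and none lower, where 25.1% of all genes were called higher, and in UHRF1-AID cells 5 of 13 were higher and none lower, where 24.2% of all genes were. The median log2 fold changes over the 13 genes were 1.00 and 0.75. In DNMT1-AID cells MT-CO1 (1.23), MT-ND6 (1.23) and MT-ND5 (1.19) led, and MT-ATP8 (0.76), MT-ND4L (0.79) and MT-CYB (0.85) missed the threshold. Without replicate 3 of DNMT1-AID, which had the largest mitochondrial share of its group, only 3 genes were called. In UHRF1-AID cells MT-ND1 (0.75), MT-CO1 (1.00), MT-ND3 (0.89), MT-ND5 (1.28) and MT-ND6 (1.27) were higher. All 13 genes had positive fold changes in both lines, and DESeq2 called 13 in DNMT1-AID and 10 in UHRF1-AID cells, while after correction for GC content and length 5 and 3 were called.

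**Figure D2:**
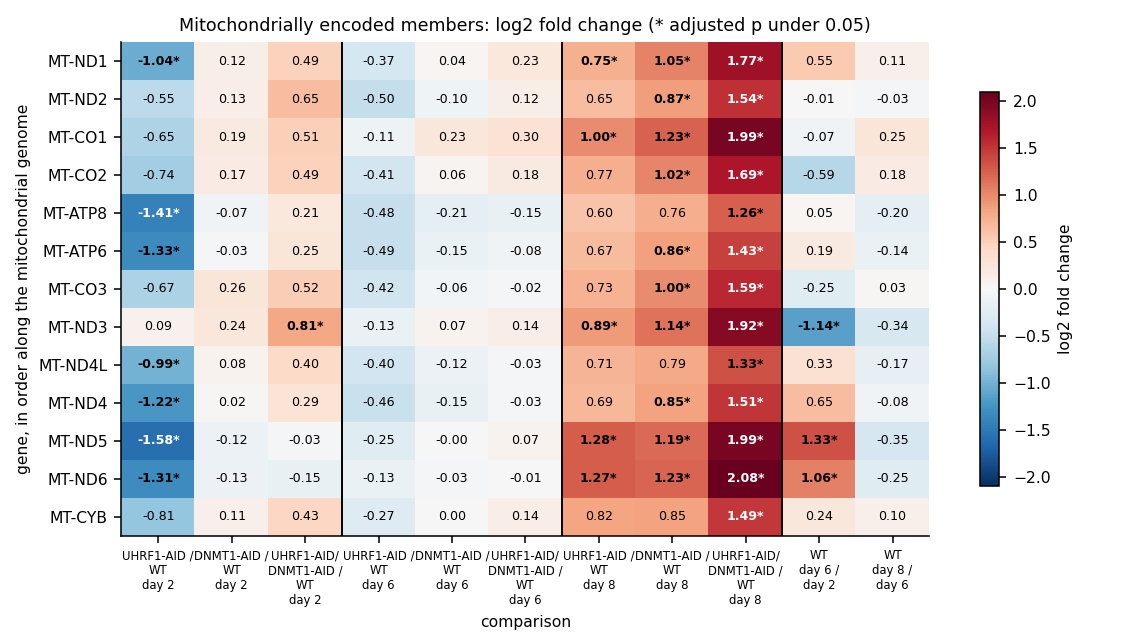
log2 fold change of each of the 13 mitochondrially encoded members (rows, in the order of the mitochondrial genome) in each comparison (columns), with calls at an adjusted p under 0.05 marked. In UHRF1-AID/DNMT1-AID against WT on day 8 all 13 are called, and in UHRF1-AID against WT on day 2 the called genes are lower.

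The lines were also compared with each other on day 8. Between UHRF1-AID/DNMT1-AID and UHRF1-AID cells, 8 of 13 mitochondrial genes were higher in UHRF1-AID/DNMT1-AID and none lower (median log2 fold change 0.81), where 20.4% of all genes were called higher. Against DNMT1-AID cells 4 were higher and none lower (median 0.67), where 22.2% were. UHRF1-AID and DNMT1-AID cells had none of the 13 genes called by edgeR, by DESeq2 or at an unadjusted p under 0.05 (10% of all genes were called higher and 8.24% lower). In that comparison the median was -0.19. Single libraries moved the counts, to 3 against UHRF1-AID without its replicate 1 and to 1 against DNMT1-AID without its replicate 1.

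On day 2, 7 of 13 mitochondrial genes were lower in UHRF1-AID than in WT cells and none higher, where 14.4% of all genes were called lower and 12.1% higher. They were MT-ND1 (-1.04), MT-ATP8 (-1.41), MT-ATP6 (-1.33), MT-ND4L (-0.99), MT-ND4 (-1.22), MT-ND5 (-1.58) and MT-ND6 (-1.31). MT-ND5 had 188, 145 and 334 CPM in UHRF1-AID cells, against 534, 649 and 810.4 CPM in WT cells, and the highest UHRF1-AID library stayed below the lowest of WT. Over the 13 genes the median was -0.99. MT-ND3 alone had a positive value (0.09) and was not called. The count was 4 without replicate 2 of UHRF1-AID and 11 by DESeq2. In UHRF1-AID/DNMT1-AID cells MT-ND3 was the only mitochondrial gene called on day 2, and it was higher (2023 ± 271 CPM and 1155 ± 206 CPM in WT, log2 fold change 0.81), where 16.3% of all genes were called higher. No mitochondrial gene was called in DNMT1-AID cells on day 2, or in any line on day 6, by edgeR over all libraries, by DESeq2 or at an unadjusted p under 0.05. With only the libraries compared in the edgeR fit, 1 was higher in UHRF1-AID/DNMT1-AID cells on day 6.

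Whether the difference from WT itself changed between day 2 and day 8 was tested with an interaction term. In UHRF1-AID cells it moved up for 11 of 13 mitochondrial genes (median change 1.71), where 10.7% of all genes moved up. In UHRF1-AID/DNMT1-AID cells it moved up for 8 (median 1.18), where 16.1% of all genes did, and in DNMT1-AID cells for 2 (median 0.85), where 7.05% did. None moved down in any line, where 7.08% of all genes did in UHRF1-AID, 22.6% in UHRF1-AID/DNMT1-AID and 9.28% in DNMT1-AID cells. In UHRF1-AID cells, MT-ND5 was below WT on day 2 (-1.58) and above it on day 8 (1.28), a change of 2.86 (SE 0.51, adjusted p = 0.000322).

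Per length of annotated exons, mitochondrial genes stood above every nuclear member on day 8, in UHRF1-AID/DNMT1-AID as in WT cells. On the TPM scale, on which counts are divided by exon length and made to add up to 1000000 in each library, the 13 genes ranged from 6736 to 38877 in UHRF1-AID/DNMT1-AID cells and from 2550.2 (MT-ND5) to 24363 (MT-ATP8) in WT cells. The highest nuclear member was COX8A, the ubiquitous small subunit of complex IV, with 1125 ± 155 TPM in UHRF1-AID/DNMT1-AID and 1483 ± 60.5 TPM in WT. The exon length covers all annotated exons of a gene, at 494 bases for COX8A, 4816 for COX4I1 and 16591 for NDUFB9. Lengths of the transcripts present were not used, so the order of nuclear members on this scale depends on the annotation. MT-ATP8 is short and overlaps MT-ATP6, and its level per length depends on how shared reads were counted. Since TPM add up to a fixed sum with the mitochondrial genes included, COX8A is lower in UHRF1-AID/DNMT1-AID on this scale and not on the TMM-scaled one given below.

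WT cells changed between days too, under the same treatment. Of 86 nuclear members, 80 were lower in WT on day 6 than on day 2 and 1 was higher, where 32.1% of all genes were called lower and 35.7% higher. The median log2 fold change was -1.43, against 0.07 over all genes. ATP5ME, a membrane subunit of ATP synthase, had 14.98, 18.8 and 11.9 CPM in WT cells on day 6, against 65.3, 87.7 and 71.4 CPM in WT cells on day 2 (-2.30, adjusted p = 3.73e-09). The day 6 libraries were all far below those of day 2. NDUFA1, a complex I accessory subunit, had a log2 fold change of -2.19. The exception was NDUFV3 (0.32), with -0.02 after correction for GC content and length. The flavoprotein SDHA was not called (-0.14), while its complex II partners SDHB, SDHC and SDHD were lower (-1.05, -1.42 and -1.42), as was CYC1 of complex III (-1.37). By complex, the lower counts were 37 of 39 for complex I, 3 of 4 for complex II, 10 of 10 for complex III, 11 of 14 for complex IV and 19 of 19 for complex V.

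Of the mitochondrial genes, 3 were called between these days. In WT, MT-ND5 (1.33) and MT-ND6 (1.06) were higher on day 6 than on day 2, MT-ND3 was lower (523 ± 21.9 CPM on day 6 and 1155 ± 206 CPM on day 2, -1.14) and the other 10 were not called. After correction for GC content and length the MT-ND3 call was lost (-0.36), 8 mitochondrial genes were higher, and their median was 0.91, against 0.19 without it. Between days 6 and 8 in WT, 65 nuclear members were higher on day 8 and none lower (17.6% of all genes were called higher and 17% lower), with a median of 0.44, led by NDUFA11 (0.73) and UQCR11 (0.67), and no mitochondrial gene was called by edgeR over all libraries, by DESeq2 or at an unadjusted p under 0.05. With only the libraries compared, edgeR called 1 higher and 2 lower, and with a replicate block 1 lower. The ratio of mitochondrial to nuclear counts in WT on day 6 was 2.65-fold that of day 2, and on day 8 0.7498-fold that of day 6, in both cases without overlap.

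Gene length moved with these values. From day 2 to day 6 in WT, the median over all genes was -0.41 for exon lengths under 1000 bases and 0.62 for 8000 bases or more, while that of nuclear members was -1.54 and -0.96. Nuclear members are short, with a median of 2545 bases, against 4997 over all genes tested, and the mitochondrial ones shorter still (784). With library size as the only scaling, the median of all genes between these days was 0.36, against 0.07 with TMM scaling. After correction for GC content and length the median of nuclear members was -1.21, and that of all genes -0.07.

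**Figure D3:**
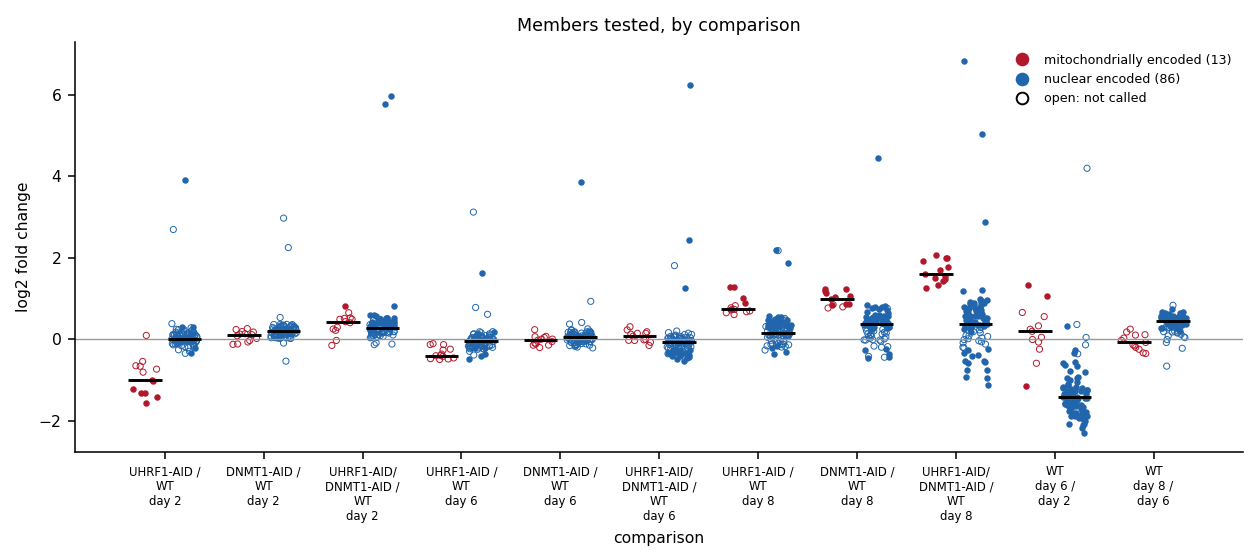
log2 fold change of every tested member in each comparison with WT and between WT days, mitochondrially encoded and nuclear members apart, with filled points for called members, open points for uncalled ones and a bar for the median of each set. The mitochondrial median lies above the nuclear one on day 8 in every degron line (0.75, 1.00 and 1.59 in the UHRF1-AID, the DNMT1-AID and the double degron line), and the nuclear median is -1.43 in WT on day 6 against day 2.

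Nuclear members differed from WT on day 8 in both directions and by less. In UHRF1-AID/DNMT1-AID cells 54 of 86 were higher and 14 lower, where 35.7% of all genes were called higher and 32.8% lower. The 54 include COX8C and COX7A1, which were tested largely through this line. In DNMT1-AID cells 54 were higher and 5 lower (25.1% and 22.4% of all genes), and in UHRF1-AID cells 28 were higher and 4 lower (24.2% and 21%). The medians were 0.37, 0.37 and 0.16. After correction for GC content and length they were -0.11, 0.11 and -0.10, but that fit also lowered the medians of all genes, to -0.22, -0.08 and -0.15. The nuclear median thus stayed above that of all genes, by 0.12, 0.19 and 0.06, against 0.34, 0.35 and 0.13 without the correction. The corrected counts of nuclear members were 22 higher and 38 lower in UHRF1-AID/DNMT1-AID cells (23.7% and 46.2% of all genes), 25 and 14 in DNMT1-AID cells (17.3% and 28.8%), and 6 and 28 in UHRF1-AID cells (15.8% and 37.96%). In UHRF1-AID cells the count of higher genes also depended on replicate 2, without which it was 11. Scaling by library size alone left 30 higher and 12 lower in DNMT1-AID cells (15.7% and 35.1% of all genes), where the median of all genes was -0.15, against 0.02 with TMM scaling.

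Complex I followed this split. Of its 39 nuclear genes, 30 were higher and 6 lower in UHRF1-AID/DNMT1-AID cells, where 35.7% of all genes were called higher and 32.8% lower. The counts were 27 and 2 in DNMT1-AID cells (25.1% and 22.4% of all genes), and 17 and 3 in UHRF1-AID cells (24.2% and 21%). These counts and those of the other complexes below are from the fit without correction for GC content and length. The 39 were assigned by name and include NDUFA4, often counted with complex IV, and its relative NDUFA4L2. They also include the read-through gene NDUFC2-KCTD14, which may repeat reads of NDUFC2. NDUFA3, an accessory subunit, had 75.4, 72.1 and 81.3 CPM in UHRF1-AID/DNMT1-AID cells, against 27.8, 34.8 and 35.9 CPM in WT cells (1.21, adjusted p = 4.6e-10). It was higher in DNMT1-AID cells as well (0.81). NDUFB7, another accessory subunit, was higher in UHRF1-AID cells (0.56), and its sign turned after correction for GC content and length (-0.15). NDUFS1, a core subunit that holds iron-sulfur clusters, had 46.98, 43.3 and 47.7 CPM in UHRF1-AID/DNMT1-AID cells, against 87.9, 92.5 and 85.7 CPM in WT cells (-0.95, adjusted p = 3.7e-13), without overlap. NDUFS1 was also lower in DNMT1-AID (-0.47) and UHRF1-AID cells (-0.36).

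In complex II, none of the 4 genes was higher in any degron line on day 8. SDHC and SDHD, its membrane anchors, were lower in UHRF1-AID/DNMT1-AID cells (-0.60 and -0.39), with SDHC at 67.1 ± 8.91 CPM and 101.4 ± 4.51 CPM in WT. SDHA and SDHB, the catalytic pair, were not called (-0.04 and 0.16). No complex II gene was called in the single degron lines on that day.

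In complex III, UQCRC2, a core protein, had the lowest value of any tested member in UHRF1-AID/DNMT1-AID cells. It had 63.8, 62.6 and 69.1 CPM in UHRF1-AID/DNMT1-AID cells, against 143, 141 and 145 CPM in WT cells, with a log2 fold change of -1.13 (SE 0.08, adjusted p = 2.02e-14). The 3 libraries of each group were close together and far from those of the other. UQCRC2 was lower in DNMT1-AID (-0.38) and UHRF1-AID cells (-0.32) too. CYC1, cytochrome c1, was lower in UHRF1-AID/DNMT1-AID cells (207 ± 1.94 CPM and 347 ± 26.2 CPM in WT, -0.75) and not called in DNMT1-AID (-0.02) or UHRF1-AID cells (-0.18). UQCRFS1, the Rieske iron-sulfur protein, was the third lower gene (-0.55), and 5 of the 10 genes were higher. Of all genes, 35.7% were called higher and 32.8% lower in UHRF1-AID/DNMT1-AID cells.

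In complex IV no nuclear gene was lower in any degron line on day 8, and 10 of 14 were higher in UHRF1-AID/DNMT1-AID, 11 in DNMT1-AID and 8 in UHRF1-AID cells. Of all genes, 35.7%, 25.1% and 24.2% were called higher in these lines, in that order, and 32.8%, 22.4% and 21% lower. The 10 higher in UHRF1-AID/DNMT1-AID include COX8C and COX7A1, which were tested largely through that line. COX4I2, COX6A2 and COX7B2 had too few counts to enter the 14, so the tally depends in part on the filter. COX5B had 217, 242 and 216 CPM in UHRF1-AID/DNMT1-AID cells and 112, 99.2 and 129 CPM in WT cells (0.99), and was the highest called nuclear member with at least 1 CPM in DNMT1-AID cells (0.83). COX6B1, which joins the complex IV monomers, had 221 ± 8.297 CPM and 97.98 ± 2.78 CPM in WT (1.18). COX4I1, the largest nuclear subunit of the complex, had 0.71. In complex V, 9 of 19 genes were higher and 3 lower in UHRF1-AID/DNMT1-AID cells (35.7% and 32.8% of all genes). The lower ones were ATP5PB of the peripheral stalk (-0.92) and the catalytic head subunits ATP5F1B (-0.76) and ATP5F1A (-0.54). ATP5F1A (-0.27) and ATP5F1B (-0.24) were lower in DNMT1-AID cells as well. UQCRFS1, COX5B in UHRF1-AID/DNMT1-AID cells, ATP5F1A, ATP5F1B and the members listed next were chosen for naming after their values were seen.

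The lower calls of complex I in UHRF1-AID/DNMT1-AID cells included NDUFS1, NDUFB2 (-0.42), NDUFA10 (-0.33), NDUFA9 (-0.28) and NDUFV1 (-0.23). All 14 lower members, and 53 of the 54 higher ones, had no overlap of libraries between UHRF1-AID/DNMT1-AID and WT. The calls rest on the same libraries, so this is no separate support, and the share without overlap over all genes was not counted. The lower members had a median exon length of 4518 bases, the higher ones 2221.5 and those not called 3187. Over all genes, the median log2 fold change was 0.50 for exon lengths under 1000 bases and -0.21 for 8000 bases or more, and over nuclear members it was 0.71 and -0.07. NDUFS1 and UQCRC2 were called lower in all 6 alternative fits, the correction for GC content and length among them (-0.68 and -0.99). The part of length and base composition in the higher calls was not tested beyond that correction.

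**Figure D4:**
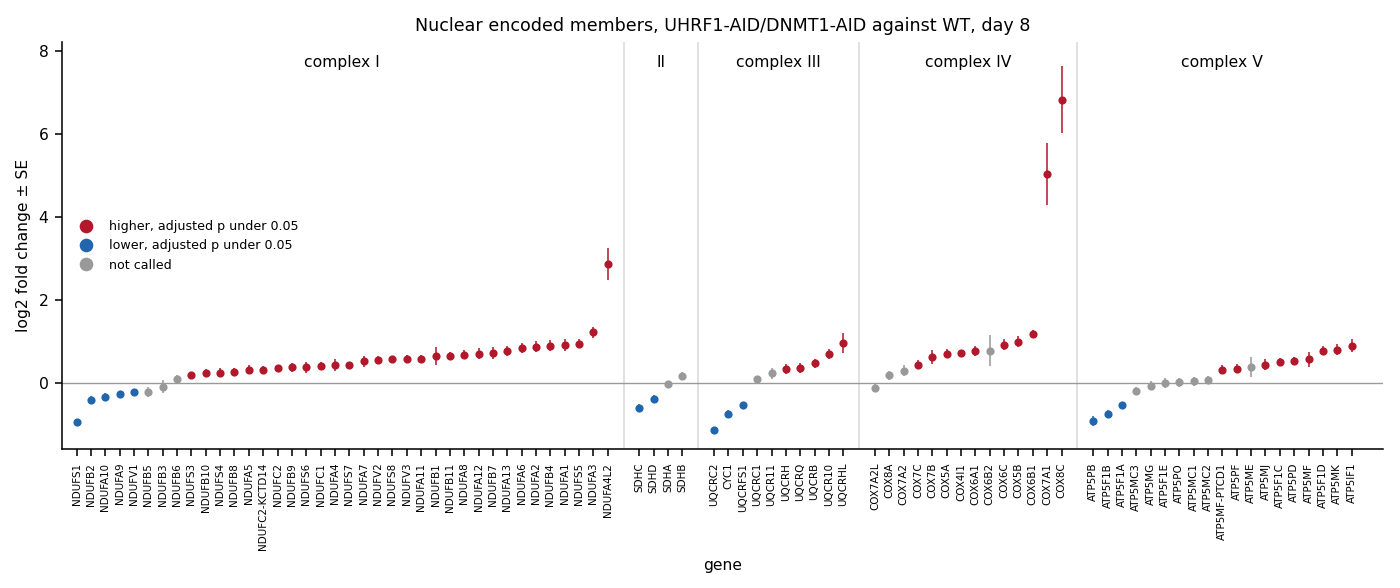
log2 fold change (± SE) of the 86 tested nuclear members in UHRF1-AID/DNMT1-AID against WT on day 8, by complex and in rank order within it, with members called higher, called lower and uncalled in separate colours (1 of the 86 is not drawn). Lower members lie in complexes I, II, III and V, with UQCRC2 lowest (-1.13), and complex IV has none called lower.

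Differences between degron lines on day 8 went in both directions for nuclear members. Of 86, 31 were higher and 13 lower in UHRF1-AID/DNMT1-AID than in UHRF1-AID cells (20.4% and 23.5% of all genes), and 14 were higher and 17 lower than in DNMT1-AID cells (22.2% and 24%). UQCRC2 was lower in both, with log2 fold changes of -0.81 and -0.76. In UHRF1-AID cells 2 were higher and 10 lower than in DNMT1-AID cells (10% and 8.24% of all genes).

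On day 2, 35 of 86 nuclear members were higher in UHRF1-AID/DNMT1-AID than in WT cells and none lower (16.3% and 11.5% of all genes), 7 of them in complex III and 10 in complex IV. UQCRHL, a gene derived from UQCRH, and UQCRB, a complex III subunit, led the members with at least 1 CPM (0.81 and 0.59). UQCRB had 409, 424 and 419.7 CPM in UHRF1-AID/DNMT1-AID cells, against 254, 305 and 270.4 CPM in WT cells. The counts of UQCRHL were 0.00601 to 0.0196 times those of UQCRH, and its own RNA and misassigned reads of UQCRH cannot be told apart. After correction for GC content and length, 11 were higher and 16 lower (11.4% and 27.8% of all genes), and scaling by library size alone left 20 higher and 3 lower (10.7% and 22.7%). No nuclear member was called in DNMT1-AID cells by edgeR, where 2.66% of all genes were called higher and 0.714% lower, while 31 were higher at an unadjusted p under 0.05 and DESeq2 called 2 higher. In UHRF1-AID cells 3 were higher and 2 lower (12.1% and 14.4% of all genes). These were SDHA (0.31), UQCRB (0.30) and COX8C higher, and NDUFS8 (-0.34) and NDUFC1 (-0.22), both of complex I, lower.

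On day 6, 17 of 86 nuclear members were lower and 3 higher in UHRF1-AID/DNMT1-AID cells (21.9% and 19% of all genes), and 7 of the lower ones belong to complex V. ATP5MC1, a subunit of the rotating ring of ATP synthase, had 37.99, 42.4 and 44.4 CPM in UHRF1-AID/DNMT1-AID cells, against 59.98, 61.8 and 58.2 CPM in WT cells (-0.53), and ATP5PB had -0.49. The higher ones were NDUFA4L2 (2.44), COX6B2 (1.24) and COX8C. In UHRF1-AID cells 5 were lower and 2 higher (10.5% and 14.3% of all genes), with NDUFB10 (-0.48) and NDUFA7 (-0.41), both of complex I, the lowest and NDUFA4L2 (1.62) and SDHA (0.18) higher. Without replicate 2 of UHRF1-AID on day 6, the library with the low mitochondrial share, 1 was lower and 1 higher. COX8C was the only member called in DNMT1-AID cells (8.84% of all genes were called higher and 4.35% lower). After correction for GC content and length, 65, 40 and 11 nuclear members were lower in UHRF1-AID/DNMT1-AID, UHRF1-AID and DNMT1-AID cells on this day, where 43.4%, 28.01% and 9.94% of all genes were called lower in that fit. The nuclear medians were then -0.42, -0.23 and -0.11, beside -0.22, -0.13 and -0.06 over all genes.

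The members with the largest folds were tissue-restricted isoforms with few counts. COX8C is the testis form of COX8A. It had 57, 61 and 134 counts in UHRF1-AID/DNMT1-AID cells on day 8, 4, 4 and 4 counts in UHRF1-AID, 12, 14 and 24 counts in DNMT1-AID and 0, 0 and 2 counts in WT cells. Each UHRF1-AID/DNMT1-AID library held more counts than any library of another line on that day. Over the 3 libraries the ratio of CPM to WT was 117 (exact 95% interval 32.1 to 972) in UHRF1-AID/DNMT1-AID, 21.4 (exact 95% interval 5.62 to 182) in DNMT1-AID and 4.83 (exact 95% interval 1.07 to 44.4) in UHRF1-AID cells. It was 63.8 (exact 95% interval 11.04 to 2559) on day 2 and 109.9 (exact 95% interval 19.4 to 4379) on day 6 in UHRF1-AID/DNMT1-AID cells, where the libraries had 21, 25 and 17 counts and 42, 47 and 29 counts, against 0, 0 and 1 counts and 1, 0 and 0 counts in WT. These intervals cover counting error only. COX8A, its ubiquitous partner, was not called on day 8 (0.18), with 236 ± 28.3 CPM in UHRF1-AID/DNMT1-AID and 207 ± 11.4 CPM in WT. COX8C lies in an intron of UNC79 on the same strand, which itself had 57 counts in UHRF1-AID/DNMT1-AID and 35 in WT cells over the 3 libraries of day 8.

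COX7A1, the heart and muscle form of COX7A2, had 38, 69 and 27 counts in UHRF1-AID/DNMT1-AID and 0, 4 and 0 counts in WT cells on day 8, a ratio of 31.1 (exact 95% interval 11.9 to 116). On day 2 it had 3, 8 and 5 counts in UHRF1-AID/DNMT1-AID and none in the 3 WT libraries, at least 5.401-fold higher against a floor of 3 counts over the group. COX7A2 was not called on day 8 (0.29, adjusted p = 0.0539). COX7A1 ends 568 bases from the convergent gene CAPNS1, which had 707 ± 22.1 counts per 1000000 of all counts in UHRF1-AID/DNMT1-AID and 416 ± 26.3 in WT, and whether reads past the end of CAPNS1 entered its counts was not tested. NDUFA4L2, the hypoxia-induced relative of NDUFA4, was higher on day 8 in UHRF1-AID/DNMT1-AID (2.87) and UHRF1-AID cells (1.88). It had 6.98, 7.18 and 4.07 CPM in UHRF1-AID/DNMT1-AID cells, 2.44, 3.85 and 2.86 CPM in UHRF1-AID cells and 0.458, 0.899 and 1.08 CPM in WT cells. It shares 33 bases with SHMT2 on the other strand, and SHMT2 had 115 ± 12.2 counts per 1000000 of all counts in UHRF1-AID/DNMT1-AID and 228 ± 6.89 in WT. NDUFA4, often counted with complex IV, was higher in UHRF1-AID/DNMT1-AID cells (0.42).

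COX4I2, the hypoxia-responsive form of COX4I1, had 36 counts in UHRF1-AID/DNMT1-AID and 4 in WT cells over 3 libraries each on day 8, a ratio of 8.36 (exact 95% interval 2.998 to 32.3). COX7B2, a testis form of COX7B, had 0, 0 and 24 counts in UHRF1-AID/DNMT1-AID, all in 1 library, and none in WT, so no difference between groups is given. COX6A2, the heart and muscle form of COX6A1, had 2 counts in UHRF1-AID cells on day 8 and none in any other library. COX6B2, the testis form of COX6B1, was called on day 6 in UHRF1-AID/DNMT1-AID cells and not on day 8 (0.78, 1.71 ± 0.578 CPM and 1.02 ± 0.416 CPM in WT). COX8C and COX7A1 were thus called in UHRF1-AID/DNMT1-AID cells on day 8, and COX6B2 was not. COX8C and COX7A1 had most of their counts in UHRF1-AID/DNMT1-AID cells, so they were tested largely through the line in which they are high. Their calls are therefore no support beyond the counts given, nor a contrast with COX4I2, COX6A2 and COX7B2, which had too few counts to be tested.

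**Figure D5:**
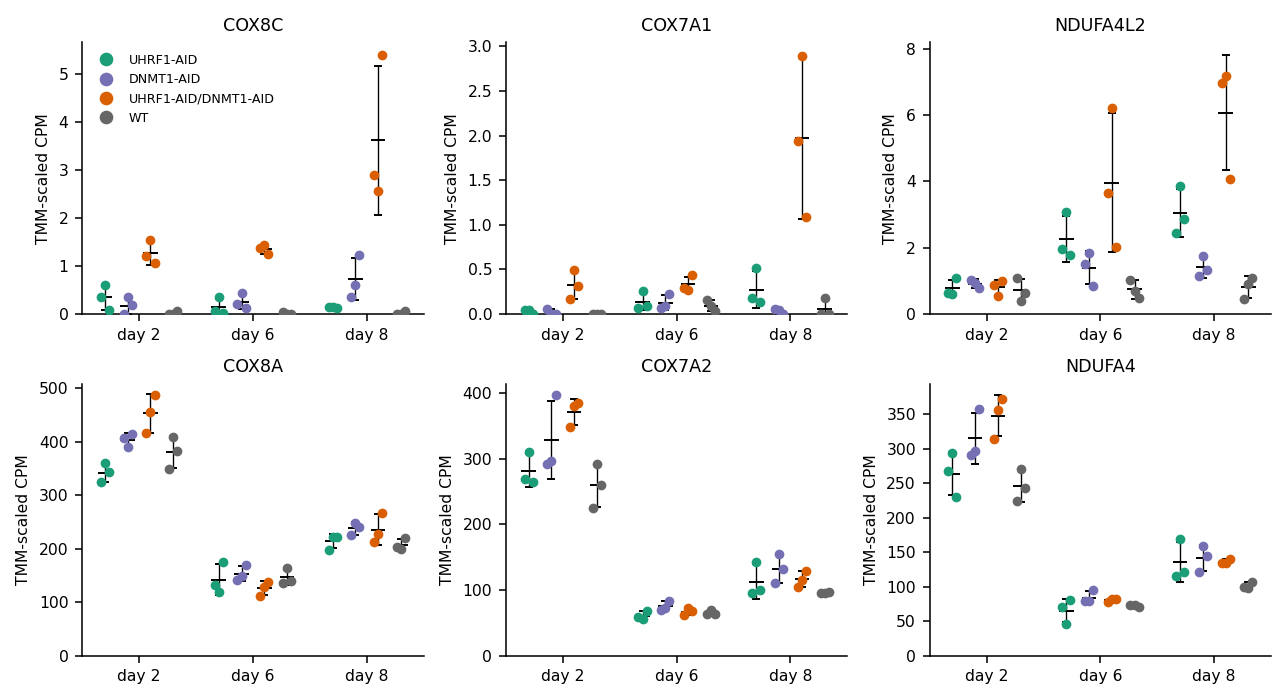
TMM-scaled CPM of tissue-restricted members (top) and their ubiquitous partners (bottom) in each library, by line and day, with bars for the mean ± SD. COX8C has 57, 61 and 134 counts in UHRF1-AID/DNMT1-AID on day 8 and 0 to 2 in WT libraries of that day, while COX8A averages 236 ± 28.3 CPM in UHRF1-AID/DNMT1-AID and 207 ± 11.4 CPM in WT.

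Since the degraded proteins maintain methylation at CpG dinucleotides, promoter windows are shown for COX8C, for its ubiquitous partner COX8A and for COX6B2, a testis form that was not called on day 8. Methylation was not analysed here. Each window runs from 250 bases before to 50 after the start site (RefSeq, GRCh38.p14), given along the gene's own strand, with each CpG in capitals.
COX8C, chr14:93346932-93347231, plus strand: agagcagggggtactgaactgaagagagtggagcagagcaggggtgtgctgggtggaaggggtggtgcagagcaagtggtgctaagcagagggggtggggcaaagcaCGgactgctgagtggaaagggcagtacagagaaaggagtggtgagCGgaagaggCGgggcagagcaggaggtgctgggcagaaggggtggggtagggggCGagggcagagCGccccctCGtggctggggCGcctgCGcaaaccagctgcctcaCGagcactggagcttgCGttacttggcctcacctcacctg
COX8A, chr11:63974370-63974669, plus strand: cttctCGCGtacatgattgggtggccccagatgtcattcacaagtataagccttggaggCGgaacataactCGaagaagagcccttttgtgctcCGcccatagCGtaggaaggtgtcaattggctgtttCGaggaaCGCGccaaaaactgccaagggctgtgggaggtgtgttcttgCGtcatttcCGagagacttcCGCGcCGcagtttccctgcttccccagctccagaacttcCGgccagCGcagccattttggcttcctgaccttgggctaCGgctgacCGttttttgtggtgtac
COX6B2, chr19:55354670-55354969, minus strand: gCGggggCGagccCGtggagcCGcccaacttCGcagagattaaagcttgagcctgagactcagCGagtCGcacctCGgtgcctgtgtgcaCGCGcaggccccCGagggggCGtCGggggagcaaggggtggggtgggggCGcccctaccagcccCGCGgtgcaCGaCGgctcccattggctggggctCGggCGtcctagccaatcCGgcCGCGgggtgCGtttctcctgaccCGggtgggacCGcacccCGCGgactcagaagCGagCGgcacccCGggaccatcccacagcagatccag
COX8C has 10 CpGs in this window, COX8A 18 and COX6B2 31. RefSeq windows were matched for 70 of 90 nuclear members, 83 windows in all, with a median of 22 CpGs, against 14 over 35116 windows of all genes. As few CpGs as in COX8C are in 12.05% of the member windows and in 45.3% of all windows.

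Letters of motifs known from promoters of respiratory genes were searched on both strands in the same windows. TGCGCA, a core of NRF1 sites, was in 22 of 83 member windows (26.5%) and in 8.24% of all windows. CCGGAAG, the ETS core bound by GABPA, was in 22 (26.5%) and 10.3%, and AAGATGG, the core of a YY1 site, in 19 (22.9%) and 5.84%. None of these contains another. The COX8C window holds the NRF1 letters and the COX8A window the ETS letters. A match describes letters and no binding.

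The genes that transcribe and process mitochondrial DNA and its RNA, or regulate it, are nuclear, and in UHRF1-AID/DNMT1-AID cells on day 8 more of them were lower than higher, where 35.7% of all genes were called higher and 32.8% lower. Of 20 genes for transcription and copying of mitochondrial DNA, 6 were higher and 10 lower (median log2 fold change -0.28). TFAM, which packages mitochondrial DNA and opens its promoters, averaged 25.3 ± 4.52 CPM in UHRF1-AID/DNMT1-AID and 45.2 ± 0.679 CPM in WT cells (-0.84, SE 0.09, adjusted p = 4.51e-10), and TFB2M, which acts with POLRMT at initiation, had -0.85. POLRMT (0.02) and the helicase TWNK (-0.13) were not called. The list ranged from DNA2 (-1.97) to MTRES1 (0.79) among called genes. Of 24 genes for mitochondrial RNA processing and stability, 4 were higher and 12 lower (median -0.22), with PDE12 the lowest (-0.91), PTCD1 the highest (0.79) and LRPPRC at -0.85. PTCD1 overlaps the read-through gene ATP5MF-PTCD1, a member. Of 13 tested regulators of mitochondrial biogenesis, 2 were higher and 7 lower (median -0.64), with NRF1 at -0.90, NRIP1 the lowest (-1.42) and PERM1 the highest (1.00), and PPARGC1A had too few counts to be tested. TFAM, TFB2M, LRPPRC and NRF1 were called lower with every library left out in turn and in all 6 alternative fits.

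In the single degron lines on day 8, TFAM was lower in DNMT1-AID (-0.32) and UHRF1-AID cells (-0.31), as were NRF1 (-0.38 and -0.36) and LRPPRC (-0.22 and -0.39). In DNMT1-AID cells LRPPRC was at 0.06 after correction for GC content and length. On day 2, 2 of the 20 genes for transcription and copying were higher and 5 lower in UHRF1-AID cells, where 12.1% of all genes were called higher and 14.4% lower. Of the 24 processing genes 2 were lower there and none higher, and of the 13 regulators likewise.

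Other gene groups around the chain gave these values in UHRF1-AID/DNMT1-AID cells on day 8, to be read beside the 35.7% of all genes that were higher and the 32.8% that were lower. Of the assembly factors, 22 of 59 were higher and 16 lower (median 0.07), between NUBPL (-1.32), an iron-sulfur assembly factor of complex I, and SCO2 (1.60), which brings copper to complex IV. Of the mitochondrial ribosome genes, 33 of 79 were higher and 27 lower (median -0.06), between MRPL45 (-1.06) and MRPL27 (1.09). Of the citric acid cycle genes, 1 of 13 was higher and 10 lower (median -0.37), with citrate synthase CS (-1.28) the lowest and IDH3G (0.55) the only one higher. Of the glycolysis genes, 3 of 18 were higher and 12 lower (median -0.39), with hexokinase HK2 (-1.67) the lowest and ALDOC (1.24) the highest. Of other genes of the respiratory chain outside the name rule, 6 of 21 were higher and 6 lower (median 0.09), between COQ5 (-0.99) and COQ10A (0.80). Of the cytosolic ribosomal protein genes, which are short like the nuclear members, 35 of 84 were higher and 13 lower (median 0.12). The lowest called was RPL21 (-1.15), and RPL10L had the highest value, with its WT libraries at 0.

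Genes of the cytosolic and mitochondrial ribosome were also lower in WT on day 6 than on day 2. On day 6 against day 2, 80 of 84 cytosolic ribosomal protein genes were lower and 1 higher (median -1.63), and 78 of 79 mitochondrial ribosome genes were lower (median -1.11), beside a median of -1.43 for nuclear members. Of all genes, 32.1% were called lower and 35.7% higher between these days. On day 2, 79 of 84 cytosolic ribosomal protein genes were higher in UHRF1-AID/DNMT1-AID cells (median 0.50), beside 0.27 for nuclear members. In that comparison 16.3% of all genes were called higher and 11.5% lower. The part of library batch in these values was not tested.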

How the data were processed

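Polyadenylated RNA of HCT116 WT and degron lines was sequenced in paired ends. The authors trimmed the reads, aligned them to hg38 with STAR and counted them per gene with featureCounts, and they deposited raw counts per Ensembl gene for each library. The strand setting of this count, the annotation release and how reads over several genes were handled are not given in the sources used here. Per the study's methods, transposable elements were counted from these reads without regard to strand.

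Identifiers were matched without version to GENCODE v44 (60462 of 60648). Protein-coding genes that passed edgeR's filterByExpr (minimum count 10) were fitted together, 15415 genes in 36 libraries, with TMM scaling and a robust quasi-likelihood fit (edgeR 4.0.16, limma 3.58.1, R 4.3.3), leaving 24 residual degrees of freedom. Tests were two-sided with Benjamini-Hochberg adjustment over all genes, and a gene was called at an adjusted p under 0.05. CPM use TMM-scaled library sizes. Ratios of low counts use all counts of the libraries without TMM scaling and have exact 95% binomial intervals. The GC content and length correction was a smooth fit across genes (mgcv 1.9-3). Exon length is the number of bases covered by any annotated exon of a gene. Other alternatives were DESeq2 1.42.0, scaling by library size, no low-count filter, fits of only the libraries compared, a replicate block and each library left out. Scripts were tested on simulated data.

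Members and lists were chosen with earlier results of these data known. Named were all mitochondrial genes, the 2 highest and 2 lowest called nuclear members of each comparison with WT and between WT days with a mean of at least 1 CPM, the isoform pairs, SDHA to SDHD, CYC1, 7 mitochondrial regulators and the highest and lowest called gene of each list in UHRF1-AID/DNMT1-AID against WT on day 8; 1 member named by this rule is not reported here. The samples of days 0 and 4 were not analysed here.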

Additional observations from a re-analysis of the deposited data

Results flagged for a closer look

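The difference from WT itself changed between day 2 and day 8, by an interaction term in edgeR's quasi-likelihood test with Benjamini-Hochberg adjustment. In UHRF1-AID cells it moved up for 11 mitochondrial and 7 nuclear members and down for 1 nuclear member, where 10.7% of all genes moved up and 7.08% down. In DNMT1-AID cells it moved up for 2 mitochondrial and 4 nuclear members and down for 4 nuclear members (7.05% and 9.28% of all genes). In UHRF1-AID/DNMT1-AID cells it moved up for 8 mitochondrial and 15 nuclear members and down for 19 nuclear members (16.1% and 22.6% of all genes). These 3 comparisons share the WT libraries of both days.

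The degron lines also differed from each other on day 8 in a direct test. In UHRF1-AID against DNMT1-AID cells 2 nuclear members were higher and 10 lower (10% and 8.24% of all genes). In UHRF1-AID/DNMT1-AID against UHRF1-AID cells 8 mitochondrial and 31 nuclear members were higher and 13 nuclear members lower (20.4% and 23.5% of all genes). In UHRF1-AID/DNMT1-AID against DNMT1-AID cells 4 mitochondrial and 14 nuclear members were higher and 17 nuclear members lower (22.2% and 24% of all genes). Clone and line cannot be told apart in these values.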

How the results depend on the processing

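The ratio of mitochondrial to nuclear counts kept its direction where the libraries did not overlap, in the 3 other ways of forming it (per kilobase, without overlapping or minus-strand genes, from medians of log2 CPM) and with each library left out. In every fit 12 or 13 mitochondrial genes were higher in UHRF1-AID/DNMT1-AID than in WT cells on day 8, and 78 to 81 nuclear members were lower in WT on day 6 than on day 2. Counts that moved by more than 1.5 times are given with the count of the chosen fit in brackets, as members called higher or lower. Their cause was not tested. Where the share of all genes called in the same fit is given above, the count is to be read beside it. For the other counts no such share is given, so they do not set the members apart from all genes. With DESeq2 the counts were in UHRF1-AID against WT day 2, 11 mitochondrial lower (7) and 5 nuclear lower (2), in DNMT1-AID against WT day 2, 2 nuclear higher (0), in UHRF1-AID against WT day 8, 10 mitochondrial higher (5) and 2 nuclear lower (4), in WT day 6 against day 2, 2 nuclear higher (1). It also gave in UHRF1-AID against WT change from day 2 to day 8, 13 nuclear higher (7), in DNMT1-AID against WT change from day 2 to day 8, 4 mitochondrial higher (2), in UHRF1-AID against DNMT1-AID day 8, 1 nuclear higher (2), in UHRF1-AID/DNMT1-AID against DNMT1-AID day 8, 8 mitochondrial higher (4) and 23 nuclear higher (14). With the correction for GC content and length the counts were in UHRF1-AID against WT day 2, 12 mitochondrial lower (7) and 28 nuclear lower (2), in UHRF1-AID/DNMT1-AID against WT day 2, 11 nuclear higher (35) and 16 nuclear lower (0), in UHRF1-AID against WT day 6, 1 nuclear higher (2) and 40 nuclear lower (5), in DNMT1-AID against WT day 6, 11 nuclear lower (0). The same fit gave in UHRF1-AID/DNMT1-AID against WT day 6, 65 nuclear lower (17), in UHRF1-AID against WT day 8, 3 mitochondrial higher (5), 6 nuclear higher (28) and 28 nuclear lower (4), in DNMT1-AID against WT day 8, 5 mitochondrial higher (10), 25 nuclear higher (54) and 14 nuclear lower (5), in UHRF1-AID/DNMT1-AID against WT day 8, 22 nuclear higher (54) and 38 nuclear lower (14). It further gave in WT day 6 against day 2, 8 mitochondrial higher (2), 0 mitochondrial lower (1) and 0 nuclear higher (1), in UHRF1-AID against WT change from day 2 to day 8, 6 nuclear lower (1), in DNMT1-AID against WT change from day 2 to day 8, 1 mitochondrial higher (2) and 2 nuclear higher (4), in UHRF1-AID against DNMT1-AID day 8, 27 nuclear lower (10). It also gave in UHRF1-AID/DNMT1-AID against UHRF1-AID day 8, 3 mitochondrial higher (8), 19 nuclear higher (31) and 21 nuclear lower (13), in UHRF1-AID/DNMT1-AID against DNMT1-AID day 8, 1 mitochondrial higher (4), 6 nuclear higher (14) and 45 nuclear lower (17). With scaling by library size only the counts were in UHRF1-AID/DNMT1-AID against WT day 2, 20 nuclear higher (35) and 3 nuclear lower (0), in DNMT1-AID against WT day 6, 1 nuclear lower (0), in UHRF1-AID against WT day 8, 9 nuclear lower (4), in DNMT1-AID against WT day 8, 30 nuclear higher (54) and 12 nuclear lower (5). It also gave in WT day 6 against day 2, 4 mitochondrial higher (2) and 2 nuclear higher (1), in UHRF1-AID against WT change from day 2 to day 8, 4 nuclear higher (7) and 4 nuclear lower (1), in DNMT1-AID against WT change from day 2 to day 8, 7 nuclear lower (4), in UHRF1-AID against DNMT1-AID day 8, 6 nuclear higher (2) and 3 nuclear lower (10). With no filter on low counts the counts were in UHRF1-AID against WT day 2, 1 nuclear lower (2), in UHRF1-AID against WT day 6, 1 nuclear higher (2) and 3 nuclear lower (5), in WT day 6 against day 2, 2 nuclear higher (1), in DNMT1-AID against WT change from day 2 to day 8, 1 mitochondrial higher (2). It also gave in UHRF1-AID against DNMT1-AID day 8, 1 nuclear higher (2). With only the libraries compared in the fit the counts were in UHRF1-AID against WT day 2, 1 nuclear lower (2), in DNMT1-AID against WT day 2, 4 nuclear higher (0), in UHRF1-AID/DNMT1-AID against WT day 2, 4 mitochondrial higher (1) and 59 nuclear higher (35), in UHRF1-AID against WT day 6, 1 nuclear higher (2) and 3 nuclear lower (5). The same fit gave in DNMT1-AID against WT day 6, 7 nuclear higher (1) and 4 nuclear lower (0), in UHRF1-AID/DNMT1-AID against WT day 6, 1 mitochondrial higher (0) and 8 nuclear higher (3), in UHRF1-AID against WT day 8, 10 mitochondrial higher (5), in DNMT1-AID against WT day 8, 8 nuclear lower (5). It further gave in WT day 6 against day 2, 4 mitochondrial higher (2) and 2 mitochondrial lower (1), in WT day 8 against day 6, 1 mitochondrial higher (0) and 2 mitochondrial lower (0), in UHRF1-AID against WT change from day 2 to day 8, 4 nuclear higher (7), in DNMT1-AID against WT change from day 2 to day 8, 4 mitochondrial higher (2) and 7 nuclear lower (4). It also gave in UHRF1-AID/DNMT1-AID against WT change from day 2 to day 8, 24 nuclear higher (15), in UHRF1-AID against DNMT1-AID day 8, 1 nuclear higher (2) and 2 nuclear lower (10), in UHRF1-AID/DNMT1-AID against UHRF1-AID day 8, 8 nuclear lower (13), in UHRF1-AID/DNMT1-AID against DNMT1-AID day 8, 9 mitochondrial higher (4) and 11 nuclear lower (17). With a replicate block the counts were in UHRF1-AID against WT day 2, 4 nuclear lower (2), in DNMT1-AID against WT day 2, 3 nuclear higher (0), in WT day 6 against day 2, 4 mitochondrial higher (2), in WT day 8 against day 6, 1 mitochondrial lower (0). Signs were compared between fits only for called mitochondrial genes and for called nuclear members named by the rule, isoform pairs included. The signs of other members were not compared and may have turned as well. Among the genes compared, the sign turned only after the correction for GC content and length, where the log2 fold changes were in UHRF1-AID/DNMT1-AID against WT day 2 COX6A1 -0.00546, COX6B1 -0.23, and in UHRF1-AID against WT day 8 NDUFA11 -0.0183, NDUFB7 -0.15, COX6B1 -0.0361, and in DNMT1-AID against WT day 8 NDUFB10 -0.29, NDUFA7 -0.12, NDUFB7 -0.0434, and in UHRF1-AID/DNMT1-AID against WT day 8 NDUFC1 -0.33, NDUFB10 -0.98, NDUFA11 -0.15, NDUFA7 -0.50, NDUFB7 -0.56, and in WT day 6 against day 2 NDUFV3 -0.0175, and in UHRF1-AID against WT change from day 2 to day 8 NDUFA11 -0.00354, NDUFB7 -0.10, and in UHRF1-AID/DNMT1-AID against UHRF1-AID day 8 NDUFB10 -0.17, NDUFA7 -0.0339, and in UHRF1-AID/DNMT1-AID against DNMT1-AID day 8 NDUFC1 -0.0397. Leaving out each library in turn gave in UHRF1-AID against WT day 2, 4 to 8 mitochondrial lower (7) and 1 to 4 nuclear higher (3) and 1 to 4 nuclear lower (2), in DNMT1-AID against WT day 2, 0 to 3 nuclear higher (0), in UHRF1-AID/DNMT1-AID against WT day 2, 20 to 40 nuclear higher (35), in UHRF1-AID against WT day 6, 1 to 2 nuclear higher (2) and 1 to 12 nuclear lower (5), in DNMT1-AID against WT day 6, 0 to 1 nuclear higher (1). It gave in UHRF1-AID against WT day 8, 11 to 32 nuclear higher (28) and 2 to 3 nuclear lower (4), in DNMT1-AID against WT day 8, 3 to 13 mitochondrial higher (10), in WT day 6 against day 2, 1 to 2 nuclear higher (1), in UHRF1-AID against WT change from day 2 to day 8, 3 to 12 nuclear higher (7) and 0 to 2 nuclear lower (1), in DNMT1-AID against WT change from day 2 to day 8, 0 to 3 mitochondrial higher (2) and 1 to 10 nuclear higher (4) and 2 to 5 nuclear lower (4). It also gave in UHRF1-AID/DNMT1-AID against WT change from day 2 to day 8, 5 to 10 mitochondrial higher (8), in UHRF1-AID against DNMT1-AID day 8, 0 to 1 nuclear higher (2) and 2 to 22 nuclear lower (10), in UHRF1-AID/DNMT1-AID against UHRF1-AID day 8, 3 to 12 mitochondrial higher (8) and 20 to 40 nuclear higher (31), in UHRF1-AID/DNMT1-AID against DNMT1-AID day 8, 1 to 9 mitochondrial higher (4) and 9 to 20 nuclear higher (14). In none of 14 comparisons did all same-numbered replicates correlate above 0.1 in their deviations from the group mean (r of pairs -0.06 to 0.13). The labels do not say whether equal numbers mark paired samples, and weak correlations cannot settle it. The replicate block moved no other count of members by more than 1.5 times. Nuclear isoforms with few counts are limited by depth, and mitochondrial genes by their spread between replicates.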

Other observations

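Mitochondrial RNA outside the protein-coding members was also present in these polyadenylated libraries. Summed over MT-RNR1 and MT-RNR2, the 2 mitochondrial ribosomal RNAs, it averaged 3935 ± 704 counts per 1000000 of all counts (CPM) in UHRF1-AID, 3920.1 ± 886 CPM in DNMT1-AID, 6716 ± 1079 CPM in UHRF1-AID/DNMT1-AID and 2586 ± 120.3 CPM in WT cells on day 8 (SD, n = 3 each). On day 2 it was 4998 ± 636 CPM in UHRF1-AID, 6251 ± 390.4 CPM in DNMT1-AID, 9291 ± 291 CPM in UHRF1-AID/DNMT1-AID and 5069.7 ± 770.0 CPM in WT cells, so that UHRF1-AID and WT libraries overlapped in these RNAs on the day on which 7 of the 13 protein-coding genes were lower.

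Annotated nuclear copies of mitochondrial genes, 404 pseudogenes and other entries named after MT- genes, summed to 1628 ± 359.8 CPM in UHRF1-AID/DNMT1-AID and 649 ± 98.7 CPM in WT cells on day 8. Their sequences are close to those of the mitochondrial genes, and how reads matching both were counted is not given in the sources used here, so their RNA and that of mitochondrial DNA cannot be told apart.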
